A study of Mus musculus with 15 samples.

Results

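The 37 genes of mouse mitochondrial DNA, taken as every gene whose symbol begins with mt-, were examined in single oocytes. They comprise 13 mRNAs, 2 rRNAs and 22 tRNAs among 28785 gene IDs, and 36 of them are listed in the count files, since mt-Tk had no count in any oocyte. Each of 15 libraries was made from 1 mouse oocyte by MATQ-seq, which primes and amplifies total RNA of a single cell. The 9 germinal vesicle (GV) oocytes, fully grown and halted in meiotic prophase, were taken 44 h after a dose of 7 IU of PMSG, a gonadotropin that makes follicles grow. The 6 MII oocytes, ovulated eggs halted at the second metaphase, came from females that received the same dose of PMSG and then, about 48 h later, 7 IU of hCG, which triggers ovulation. They were collected a further 20 h later and stripped of cumulus cells with 300 IU/mL hyaluronidase. All females were about 6 to 8 weeks old, and no strain, genotype or individual mouse is named. Each stage was therefore taken as 1 sample whose cells were sequenced singly, without any test, and an SD below describes the spread between oocytes.

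Mitochondrial DNA is copied into long polycistronic RNAs from each of its strands. The tRNAs lie between the other genes, and cutting them out releases the rRNAs and mRNAs. The heavy-strand transcript, as the names are used here, carries both rRNAs, all mRNAs but mt-Nd6 and most tRNAs, with the rRNA genes nearest its start. The mRNAs encode core subunits of respiratory complexes I, III and IV and of ATP synthase. The growing oocyte builds up a very large stock of mitochondria and mitochondrial DNA, which the early embryo inherits and shares out.

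The GV libraries held 3687610 to 7103063 counts and the MII libraries 808641 to 2348281. The files form 3 sets by their column headers: GV1 to GV6, GV7 to GV9, and all MII oocytes, so the effects of stage and of file set cannot be told apart. A feature with no symbol took 0% of the counts of GV1 to GV6, 3.43% to 11.2% of GV7 to GV9 and 15.7% to 61.2% of MII, and shares are also given with it left out. All 12 oocyte markers had counts at both stages, summing to 8054 to 30390 CPM (counts scaled to a common library total) in GV, with GV2 lowest, and 5860 to 8258 CPM in MII. The 16 cumulus and granulosa markers summed to 102 to 346 CPM in GV and 17.6 to 85.1 CPM in MII. In MII 9 of the 16 had counts and 7, Inha, Amh and Foxl2 among them, were at 0, in libraries with fewer counts than in GV. Totals for all marker sums here include the unnamed feature, which lowers them most in MII, so these sums do not rank the stages. Summed markers of theca and stroma reached 27.0 CPM (GV2), of oviduct epithelium 11.5 CPM (GV2) and of blood 4.55 CPM (GV4). The part of these other cells in the mitochondrial values was not tested.

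Nuclear DNA holds old insertions of mitochondrial DNA, and where a nuclear copy is nearly identical, a count table can give a mitochondrial transcript's reads to the copy. For 9 of the 13 mRNAs, the reference held 11 annotated nuclear copies that aligned over at least 100 bases with at least 95% identity, and 5 copies had no difference over the alignment. The opening 60 bases of mt-Atp6, which encodes a membrane subunit of ATP synthase, and of its copy Gm10925 are shown because these letters give no way to tell which gene a read came from.
mt-Atp6: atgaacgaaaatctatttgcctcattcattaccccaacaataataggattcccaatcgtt
Gm10925: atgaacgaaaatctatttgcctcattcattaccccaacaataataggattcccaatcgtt
Gm29216, a copy of part of mt-Co1, a catalytic subunit of complex IV, differs from it at a single aligned base, A1066T. Gm28438, a copy of mt-Nd3, a subunit of complex I, differs from that gene at T3C alone. Positions are counted from the start of the mitochondrial gene, whose base comes first. The bases around each difference are shown with the differing base in capitals.
mt-Co1: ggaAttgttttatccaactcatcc
Gm29216: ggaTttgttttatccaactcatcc
mt-Nd3: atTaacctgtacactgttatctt
Gm28438: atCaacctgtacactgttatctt

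The counts of 3 mRNAs sat almost wholly at their nuclear copies. Over all oocytes, mt-Atp6 had 749 counts and Gm10925 had 98532, so 0.754% of the counts of that pair were at the mitochondrial gene. The catalytic subunit mt-Co2 had 207 counts and Gm28661 had 21731, which left 0.944% at the mitochondrial gene. The complex IV subunit mt-Co3 had 356 counts and Gm28437 had 21719, which left 1.61%. Of all stretches of 100 bases in mt-Atp6, 99.5% occur unchanged in a nuclear copy, against 99.5% in mt-Co2 and 99.9% in mt-Co3. Sequence sharing alone did not order the genes. For mt-Nd4l 98.5% of such stretches are shared, yet 99.1% of the counts were at the mitochondrial gene, and for mt-Nd4 60.8% are shared and 99.0% of the counts were there with 640 at Gm28439. For mt-Nd3 97.6% are shared and 61.5% of the counts were at the mitochondrial gene, with 654 at Gm28438. For mt-Co1 30.8% are shared, and 76.3% of the counts of the pair were at mt-Co1, with 16424 at Gm29216, which covers 31.3% of the gene, and 889 at Gm13340. The remaining copy of mt-Co2, Gm13341, took 441 counts. The sources used here do not give how the authors assigned reads that match several genes.

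The share of a gene's counts that was given to the mitochondrial gene differed between the stages for some of these mRNAs. For mt-Atp6 the GV oocytes ranged from 0.227% to 0.994% (mean 0.616 ± 0.213%, SD, n = 9) and the MII oocytes from 1.15% to 2.83% (1.75 ± 0.601%, SD, n = 6), with no overlap. For mt-Co3 the GV range was 1.06% to 1.62% (1.31 ± 0.205%) and the MII range 2.97% to 5.44% (3.92 ± 1.09%), also with no overlap. For mt-Nd4 the stages stood in the other order, with 99.0% to 99.6% for GV oocytes and 96.8% to 98.4% for MII oocytes. In MII6 these shares rest on 1 count at mt-Co3, 2 at mt-Atp6 and 2 at Gm28439, the copy of mt-Nd4. The separations of these 3 genes thus hang on single counts. The remaining 6 mRNAs with copies overlapped between stages. This share exists only for genes with a copy, so no share over all genes stands beside these results. The stages are also separate file sets, and whether read assignment differed between the sets was not tested. For mt-Nd3 the 3 oocytes GV7 to GV9 lay at 14.3% to 33.3%, below the 49.0% to 72.2% of GV1 to GV6, but each of these 3 oocytes had only 1 or 2 counts at mt-Nd3. In all, the copies held 161463 counts beside 631807 at the mitochondrial genes, and made up 9.09% to 29.2% of the sum per oocyte, highest in GV2. Levels of mt-Atp6, mt-Co2, mt-Co3 and mt-Nd3 below are therefore uncertain, and values with copies added are given for levels, classes and composition. Reads of true nuclear transcripts and of mitochondrial RNA cannot be told apart in such sums.

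**Figure D1:**
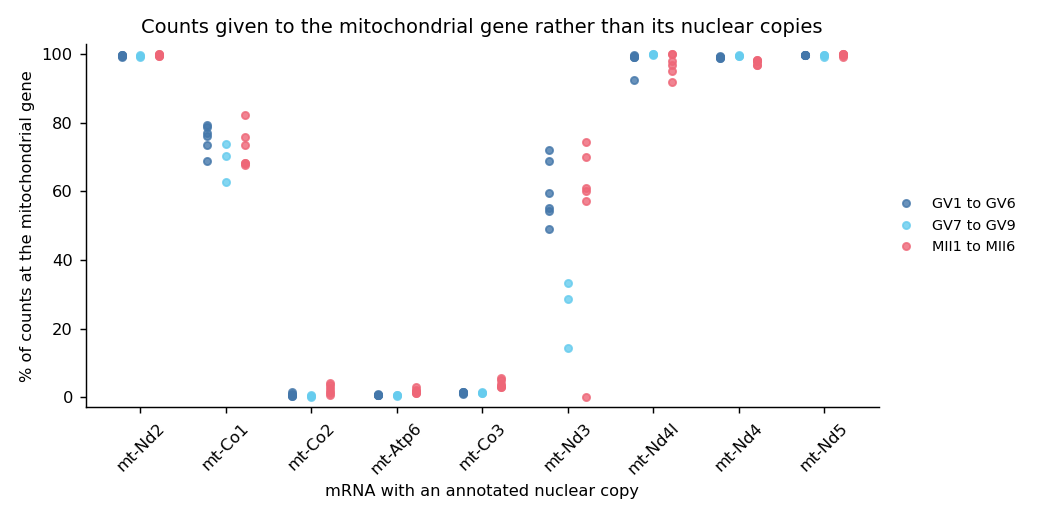
Each point is 1 oocyte; the horizontal axis lists the 9 mRNAs with an annotated nuclear copy and the vertical axis gives the percent of counts at the mitochondrial gene out of gene plus copies. The mRNAs mt-Co2, mt-Atp6 and mt-Co3 lie near the bottom in every oocyte, mt-Nd2, mt-Nd4l, mt-Nd4 and mt-Nd5 lie near the top, and mt-Co1 and mt-Nd3 lie between.

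The mitochondrial genes took a small and very variable part of the counts, and GV2 stood far above all other oocytes. In GV1 to GV9 in turn, they held 1.88%, 4.69%, 0.284%, 1.42%, 0.865%, 1.62%, 0.258%, 0.923% and 0.616% of all counts (mean 1.40 ± 1.36%, SD, n = 9). In MII1 to MII6 they held 0.396%, 1.12%, 0.918%, 0.345%, 0.404% and 0.0953% (0.546 ± 0.388%, SD, n = 6). The stages overlapped, and 34.3% of all mitochondrial counts of the GV stage came from GV2. With the unnamed feature left out, the means were 1.41 ± 1.35% in GV and 0.773 ± 0.398% in MII, and the GV mean without GV2 was 0.999 ± 0.595% (n = 8). Summed over oocytes the share was 1.33% in GV (exact binomial 95% interval 1.33% to 1.33%) and 0.503% in MII (0.498% to 0.507%), a log2 ratio of −1.40. Without the unnamed feature these summed shares were 1.36% in GV and 0.815% in MII. GV7 to GV9 alone held 0.585% with the feature kept, still above MII. With the feature left out, GV7 to GV9 held 0.632% against 0.815% in MII, a log2 ratio of 0.37, in the other direction. These intervals and the Poisson intervals below cover counting error only, since PCR reads are not independent molecules.

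By RNA class, rRNA made up most of the counts at the mitochondrial genes in 7 of 9 GV oocytes and, among MII oocytes, in MII1, MII5 and MII6. The rRNA share was 66.3%, 10.2%, 54.0%, 70.5%, 34.6%, 61.5%, 69.4%, 61.2% and 69.7% in GV1 to GV9 (55.3 ± 20.3%, SD, n = 9). It was 50.6%, 36.7%, 34.7%, 46.8%, 55.6% and 51.4% in MII1 to MII6 (46.0 ± 8.46%, SD, n = 6). Of the GV oocytes, 6 lay above every MII oocyte, while GV2 lay below all of them and GV5 just below, and GV3 lay within the MII range. Without GV2 the GV mean was 60.9 ± 12.02%. The mRNA share was 44.6 ± 20.2% in GV, with 89.7% in GV2 as the highest, and 53.2 ± 8.18% in MII. The oocyte with the highest mitochondrial share was thus also the one whose mitochondrial counts were most strongly mRNA. In GV7 to GV9 rRNA held 61.2% to 69.7%, above every MII oocyte. With the nuclear copies counted as mRNA, the rRNA share was 47.3 ± 18.5% in GV and 39.3 ± 8.32% in MII, and GV3 came to 45.5%.

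**Figure D2:**
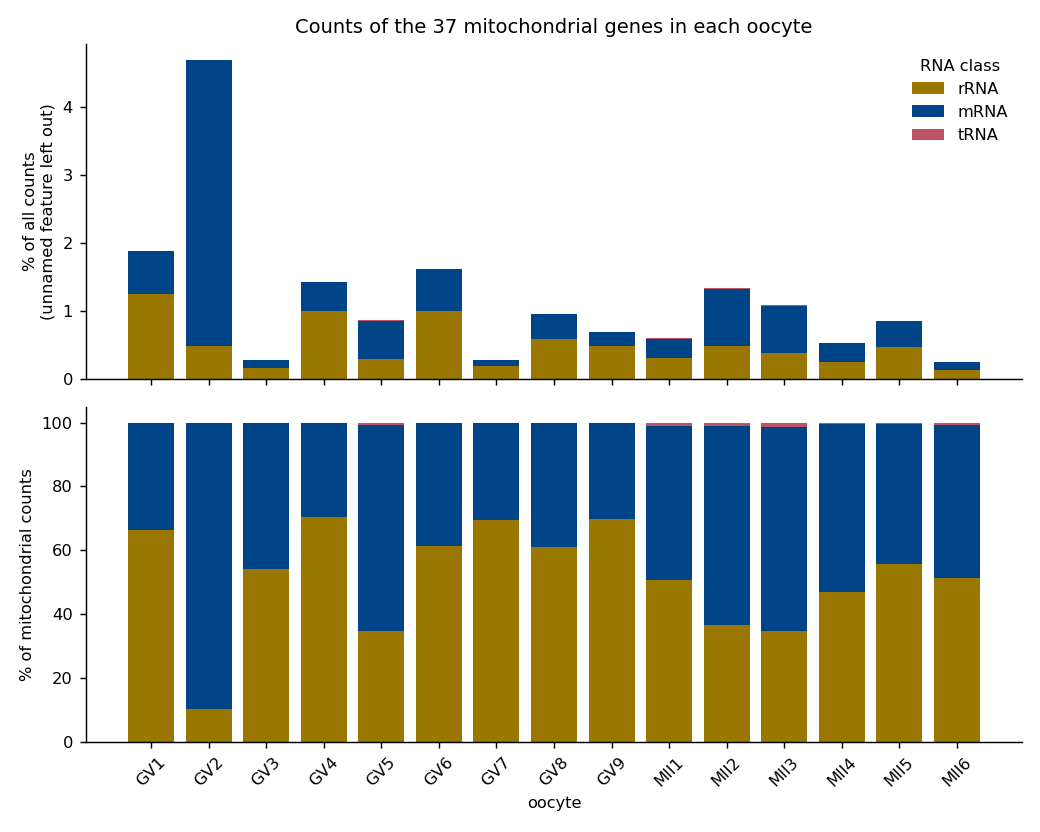
The upper bars give the percent of all counts, without the unnamed feature, held by mitochondrial rRNAs, mRNAs and tRNAs in each oocyte, and the lower bars give each class as a percent of the mitochondrial counts. GV2 reaches 4.69% with mRNA at 89.7% of it, and the tRNA band is visible only in GV5 and in MII oocytes.

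The rRNAs mt-Rnr1, of the small ribosomal subunit, and mt-Rnr2, of the large subunit, are neighbours at the start of the heavy-strand transcript. Per length, mt-Rnr1 had more counts than mt-Rnr2 in all 15 oocytes. On the scale of counts per kb per 1000 mitochondrial counts, the level of mt-Rnr1 was 375 ± 141 in GV and 341 ± 86.1 in MII, the highest of all members. The level of mt-Rnr2 was 123 ± 53.1 in GV and 84.7 ± 36.0 in MII. The log2 ratio of mt-Rnr2 over mt-Rnr1 per length ran from −2.35 to −1.04 in GV (mean −1.62 ± 0.42) and from −3.05 to −1.20 in MII (−2.07 ± 0.75). The lowest MII values, −2.81 in MII4 and −3.05 in MII5, were below every GV oocyte, and the other MII oocytes lay within the GV range. The mean of the log2 levels of both rRNAs exceeded that of the next gene on that transcript, mt-Nd1, per length in 8 of 9 GV oocytes and 5 of 6 MII oocytes, by a mean log2 ratio of 2.32 ± 1.48 in GV and 1.24 ± 0.95 in MII. The exceptions were GV2 at −0.86 and MII3 at −0.03.

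Among the mRNAs other than mt-Atp8 without an annotated nuclear copy or with under 1% of counts there, mean levels per length lay between 26.5 (mt-Nd6) and 70.0 (mt-Nd2) counts per kb per 1000 mitochondrial counts in GV, and between 23.8 (mt-Nd6) and 92.3 (mt-Cytb) in MII. The level of mt-Cytb, the subunit of complex III, was 68.0 ± 17.4 on this scale in GV and 92.3 ± 20.2 in MII. The complex I subunit mt-Nd2 had 70.0 ± 72.7 in GV and 76.7 ± 51.7 in MII, and in GV 71.8% of its counts came from GV2. The complex I subunit mt-Nd1 had 41.4 ± 19.3 in GV and 75.9 ± 37.6 in MII. For mt-Nd4, another complex I subunit, the level was 52.7 ± 35.1 in GV and 45.3 ± 4.69 in MII. For mt-Nd5, also of complex I, it was 33.3 ± 18.8 in GV and 49.9 ± 6.22 in MII. In the order of mean GV level (mt-Nd2, mt-Cytb, mt-Nd4, mt-Nd4l, mt-Nd1, mt-Nd5, mt-Nd6) no neighbours differed beyond the spread between oocytes. The MII oocytes ranged over 39.4 to 51.4 in mt-Nd4 and 42.6 to 59.7 in mt-Nd5, against 30.1 to 141 and 18.4 to 77.5 in GV, where GV2 set the upper ends. Without GV2 the GV oocytes reached 58.6 in mt-Nd4 (mean 41.6 ± 12.1, below MII) and 46.1 in mt-Nd5 (27.8 ± 9.52). For mt-Nd5 the MII oocytes lay above all GV oocytes but GV2 and GV5.

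At the other end, 5 mRNAs together held 2429 counts, or 0.683% of the mRNA counts: mt-Co2, mt-Atp8, mt-Atp6, mt-Co3 and mt-Nd3, which lie in a run with only tRNA genes among them. Before copies were added, mt-Co2 had 0.276 ± 0.231 counts per kb per 1000 mitochondrial counts in GV and 1.35 ± 0.833 in MII. With copies added, and counted per 1000 mitochondrial and copy counts, its level was 38.3 ± 14.0 in GV and 49.2 ± 4.18 in MII. On the same scale mt-Co3 had 35.0 ± 15.7 and 35.4 ± 19.8, and mt-Atp6 had 116 ± 90.9 and 89.9 ± 18.8, the highest mean of the mRNAs at both stages. The level of mt-Nd3 stayed low with its copy added, at 6.42 ± 6.67 and 6.01 ± 5.06. The small ATP synthase subunit mt-Atp8 has no annotated copy and stood at 0.292 ± 0.312 in GV and 1.12 ± 1.36 in MII by its own counts, which numbered 72 over all oocytes.

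**Figure D3:**
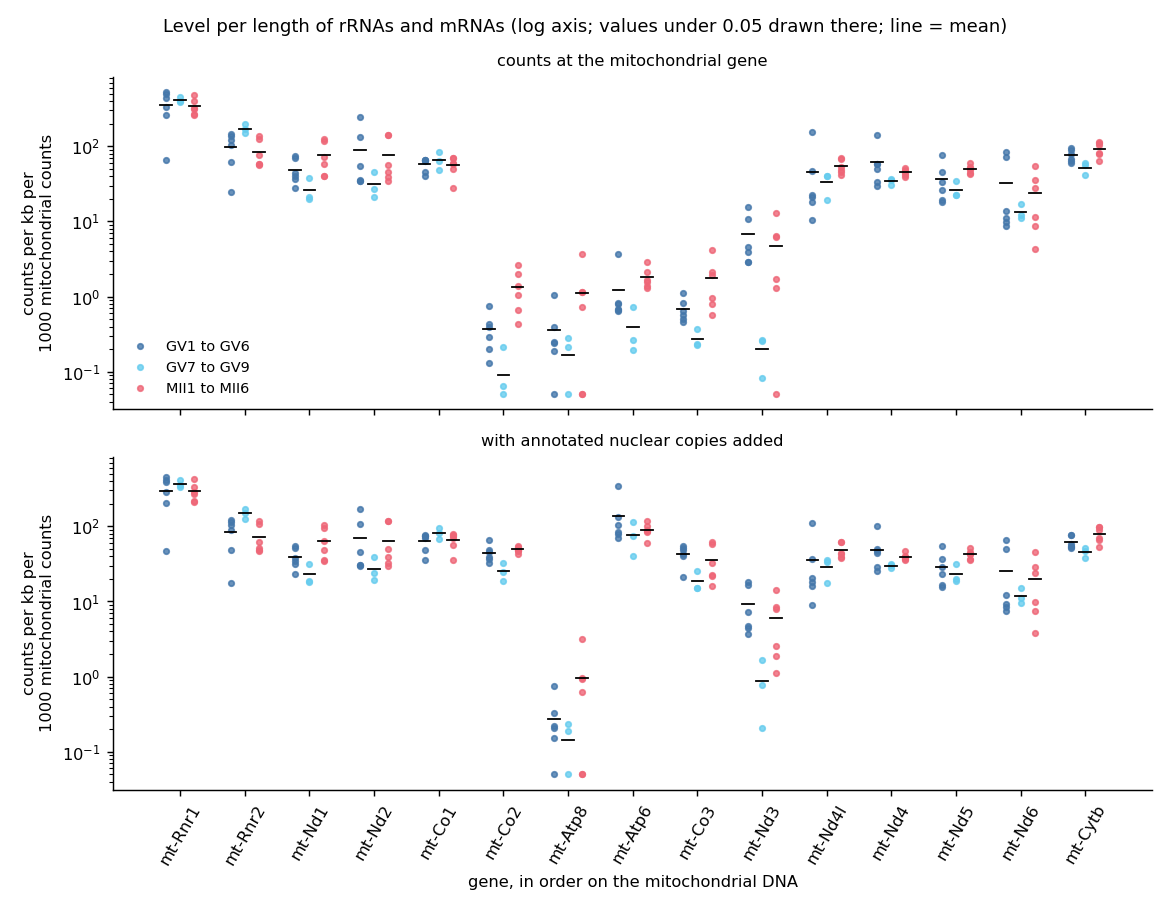
Points are oocytes and black lines are means of counts per kb per 1000 mitochondrial counts on a log axis, with genes in their order on mitochondrial DNA. The upper panel has a trough from mt-Co2 to mt-Nd3; with nuclear copies added, in the lower panel, where the 1000 counts include the copies, mt-Co2, mt-Atp6 and mt-Co3 reach the level of the other mRNAs, and mt-Atp8 and mt-Nd3 do not.

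Within the 13 mRNAs, composition differed less than 2-fold between stages for every mRNA that held at least 1% of the mRNA counts. Of these 8 mRNAs, 0 had a mean share over oocytes at least 2-fold below that in GV, and 0 had one at least 2-fold above it. Over all measured genes, counts per mitochondrial mRNA count were 2-fold or more lower in 28.3% and 2-fold or more higher in 9.53%. Those genes are mostly nuclear, so their values also move with the mitochondrial share of the library. The mRNAs are parts of the total they are divided by and cannot all shift together, so these percentages are not a like background. The complex IV subunit mt-Co1 had the largest mean share in GV, 23.9 ± 8.40%, against 16.5 ± 5.09% in MII. For mt-Cytb the shares were 18.8 ± 4.51% and 20.6 ± 6.68%, for mt-Nd4 15.6 ± 3.02% and 11.9 ± 1.54%, and for mt-Nd1 8.88 ± 1.97% and 13.1 ± 4.69%. For mt-Nd2 they were 13.7 ± 6.69% and 14.1 ± 7.47%, and for mt-Nd5 13.4 ± 3.11% and 17.4 ± 3.34%. All of these overlapped between the stages. GV2 stood apart here too, with the lowest share of mt-Co1 (6.90%) and the highest of mt-Nd2 (28.0%) among GV oocytes. With copies added, 11 mRNAs held at least 1%, and again 0 lay 2-fold or more to either side. The mean shares in GV and MII were then 13.9% and 10.2% for mt-Atp6, 5.13% and 5.69% for mt-Co2, and 5.55% and 4.42% for mt-Co3. Those of mt-Co1 became 22.7% and 17.0%, of mt-Cytb 12.9% and 15.5%, of mt-Nd4 10.9% and 9.16%, of mt-Nd2 9.47% and 10.6%, of mt-Nd5 9.37% and 13.2%, and of mt-Nd1 6.11% and 9.83%.

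The bicistronic mRNAs give pairs of genes that leave the transcript on 1 molecule. The genes mt-Nd4l and mt-Nd4, which overlap by 7 bases, had log2 ratios per length from −1.68 to 0.19 among GV oocytes (mean −0.61 ± 0.73) and from −0.21 to 0.80 among MII oocytes (0.25 ± 0.44). These ranges overlapped, and GV1 to GV6 had a mean of −0.86 while GV7 to GV9 had −0.11. The genes mt-Atp8 and mt-Atp6, which overlap by 43 bases, had −1.39 ± 1.43 in GV and −0.47 ± 0.50 in MII by the counts at the mitochondrial genes. With the counts of Gm10925 added to mt-Atp6, the ratio was −8.75 ± 1.23 in GV and −6.24 ± 0.79 in MII. That pair therefore cannot be read as a ratio of reading frames in these tables.

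The light strand encodes a single mRNA, mt-Nd6, a complex I subunit that lies opposite the end of mt-Nd5 and overlaps it by 14 bases. Its 12409 counts made up 0.456% to 4.30% of the mitochondrial counts in GV (median 0.630%) and 0.224% to 2.88% in MII (median 1.02%). The oocytes above 1% numbered 5: GV2, GV5, MII2, MII3 and MII5. Its log2 level per length against the median of the 12 heavy-strand mRNAs ran from −1.33 to 0.83 among GV oocytes (mean −0.53 ± 0.73) and from −2.98 to 0.29 among MII oocytes (−1.24 ± 1.31). Of the 12, mt-Co2, mt-Atp8, mt-Atp6, mt-Co3 and mt-Nd3 were the lowest per length, and mt-Co2, mt-Atp6 and mt-Co3 had most counts at nuclear copies. These low genes pull the median down, so the ratio places mt-Nd6 higher than it would stand against the other heavy-strand mRNAs. Whether the counting used strand is not given, so reads from the antisense side of the heavy-strand transcript cannot be told apart from mt-Nd6.

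The tRNAs were scarce, with 1223 counts in all, 778 in GV and 445 in MII, yet their share of the mitochondrial counts lay higher in each of the MII oocytes than in the GV oocytes other than GV5. Their share of the mitochondrial counts was 0.0232%, 0.0655%, 0.218%, 0.0321%, 0.861%, 0.0867%, 0.155%, 0.0432% and 0.0793% in GV1 to GV9 (0.174 ± 0.265%, SD, n = 9). It was 0.937%, 1.05%, 1.35%, 0.315%, 0.451% and 0.715% in MII1 to MII6 (0.802 ± 0.385%, SD, n = 6). Thus 8 of 9 GV oocytes lay below every MII oocyte, and GV5 lay within the MII range. GV5 held 440 tRNA counts, 56.6% of all GV tRNA counts, and MII2 and MII3 held 78.2% of the MII tRNA counts. With each oocyte thinned to 808641 counts, 1 to 12 of the 22 tRNA genes had a count in GV oocytes and 2 to 17 in MII oocytes. The tRNA genes are 59 to 75 bases long, while the libraries were sheared to 300 bp. Here and below, whether reads at tRNA genes came from cut tRNAs or from uncut transcripts was not tested. The tRNA genes on the light strand gave 57.8 ± 22.2% of the tRNA counts in GV and 33.2 ± 19.1% in MII. Some oocytes had few tRNA counts behind these percentages. As the use of strand in counting is not given, reads from the opposite strand cannot be told apart here either.

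The methionine tRNA gene mt-Tm, which lies just before mt-Nd2 on the heavy strand, is shown because it was the single member of 37 whose share of the mitochondrial counts did not overlap between stages. Its sequence is printed with the anticodon in capitals, and the proline tRNA gene mt-Tp, which had the most tRNA counts in 1 oocyte, is printed in the same way.
mt-Tm: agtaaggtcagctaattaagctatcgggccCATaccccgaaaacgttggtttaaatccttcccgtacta
mt-Tp: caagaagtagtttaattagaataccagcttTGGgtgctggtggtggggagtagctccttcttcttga
The counts of mt-Tm were 2, 8, 11, 9, 20, 23, 4, 2 and 2 in GV1 to GV9 and 11, 14, 57, 15, 21 and 7 in MII1 to MII6, from libraries with far fewer counts in all. Its share of the mitochondrial counts ran from 0.00221% to 0.0546% in GV (median 0.0120%) and from 0.0822% to 0.452% in MII (median 0.314%). The lowest MII oocyte, MII2, lay above the highest GV oocyte, GV3. Over all measured genes, 0.149% did not overlap and were higher in MII in counts per mitochondrial count, and 0.278% did not overlap and were lower. These genes are mostly nuclear and not part of the mitochondrial total, which varied from 0.0953% to 4.69% of all counts between oocytes. The 2 percentages are therefore not a like background for mt-Tm. In CPM, with totals that include the unnamed feature, mt-Tm did overlap, at 0.416 to 4.74 in GV and 2.98 to 41.5 in MII. From summed counts its level in GV was 1.84 CPM, with an exact Poisson 95% interval of 1.47 to 2.29, and in MII it was 12.98 CPM, with 10.8 to 15.5.

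The other 7 tRNAs with at least 20 counts in an oocyte owed them to a few oocytes. The proline tRNA mt-Tp had 134 of its 247 counts in GV5, which also held 72 counts of the leucine tRNA mt-Tl2, 66 of the glycine tRNA mt-Tg and 40 of the glutamine tRNA mt-Tq. The tyrosine tRNA mt-Ty had 65 counts in GV2. The cysteine tRNA mt-Tc had 34 counts in MII2, 17 in MII3 and at most 9 in any other oocyte. The glutamate tRNA mt-Te had its highest counts, 31, in GV5 and in MII2. Of the 22 tRNA genes, 6 stayed under 10 counts over all oocytes, mt-Tk among them with none, which allows up to 3 counts per library. GV5 was thus the highest oocyte, alone or jointly, in 5 of the 8 tRNAs with at least 20 counts in an oocyte.

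**Figure D4:**
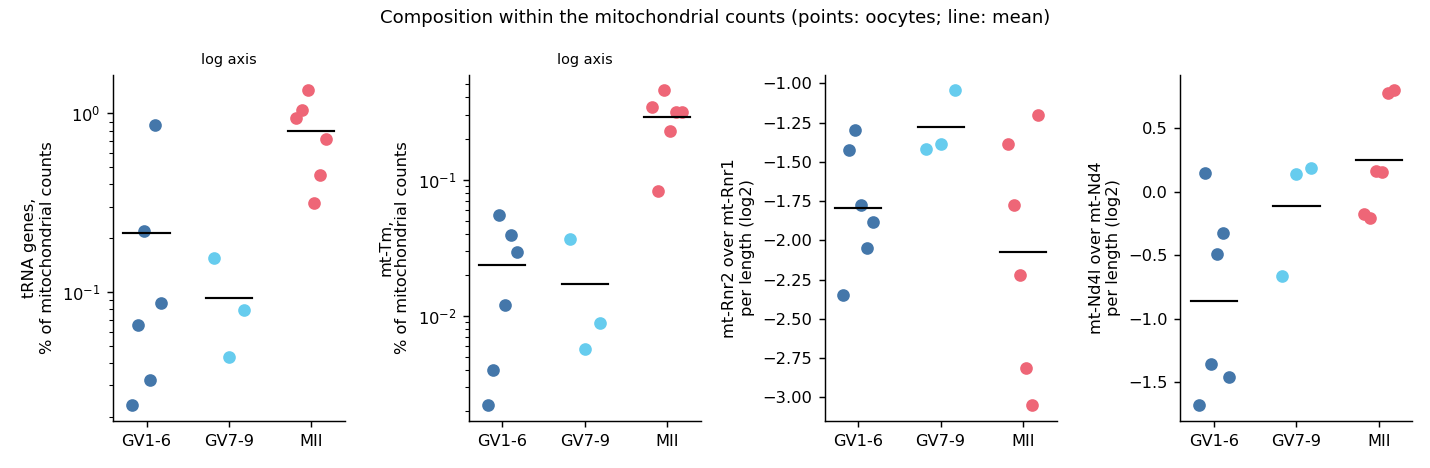
Points are oocytes and lines are means for GV1 to GV6, GV7 to GV9 and MII; the panels give the tRNA share and the mt-Tm share of the mitochondrial counts in percent on log axes, and 2 log2 ratios per length. The MII oocytes lie above all GV oocytes in mt-Tm and above all but GV5 in tRNA share, while the ratios overlap.

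Members were also set against nuclear transcripts. Ratios were taken from summed CPM as log2 MII/GV, with 0.5 added to each summed count, relative to the median measured gene, whose plain ratio was −0.98. A gene counted as measured where the higher stage reached 5 CPM, and 16 members did so: both rRNAs, 11 mRNAs and 3 tRNAs. Of these, 1 was at least 2-fold lower in MII, against 15.5% of 10090 measured genes, and 4 were at least 2-fold higher, against 12.1%. The lower one was mt-Nd4 at −1.12 ± 2.00, where the second value is the combined spread between oocytes. The higher ones were mt-Co3 at 1.55 ± 1.76, mt-Tm at 3.79 ± 1.20, mt-Tc at 4.03 ± 1.77 and mt-Tp at 1.66 ± 2.14. Without GV2 there were 0 lower and 8 higher, and the share over all measured genes was not taken for that set. With copies added mt-Co3 stood at −0.06 and mt-Atp6 at −1.42. The 3 tRNAs passed the minimum through the MII stage alone, so that their ratios had to be high. With single oocytes left out, the ratio of mt-Tm was 3.25 to 4.11. Of the measured members, mt-Tm alone did not overlap between stages in level relative to the median gene. Of all measured genes, 1.61% did not overlap and were higher and 0.684% did not overlap and were lower. A gene with 0 counts has a level of −5.10 to −4.48 in GV oocytes and −4.33 to −3.34 in MII oocytes. Genes near 0 counts thus separate by construction. The level of mt-Tm in GV, −4.60 to −2.25, began near that floor, so no conclusion is drawn from its separation here.

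The rRNAs stood at −0.38 ± 1.39 (mt-Rnr1) and −0.73 ± 1.05 (mt-Rnr2), and the other mRNAs between −0.87 and 0.44, all within the spread between oocytes. Against GV1 to GV6, 2 members were 2-fold or more lower and 4 were 2-fold or more higher, with 16.6% and 12.3% of measured genes. Against GV7 to GV9, 0 were lower and 13 higher, with 20.7% and 20.6% of measured genes. The median over the 11 measured mRNAs was −0.29 for MII over GV and 0.98 without GV2, in the other direction. For GV7 to GV9 over GV1 to GV6 it was −2.28, and −1.31 without GV2. In that comparison of the GV sets 20.2% of measured genes lay 2-fold or more below and 18.1% lay 2-fold or more above the median gene. The rRNA median there was −0.48. Leaving out GV2 moved mt-Nd4 to 0.20, mt-Nd2 from −0.57 to 1.10, mt-Nd4l from −0.87 to 1.09 and mt-Atp6 from −0.29 to 1.5, so a single oocyte set the sign of these ratios.

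**Figure D5:**
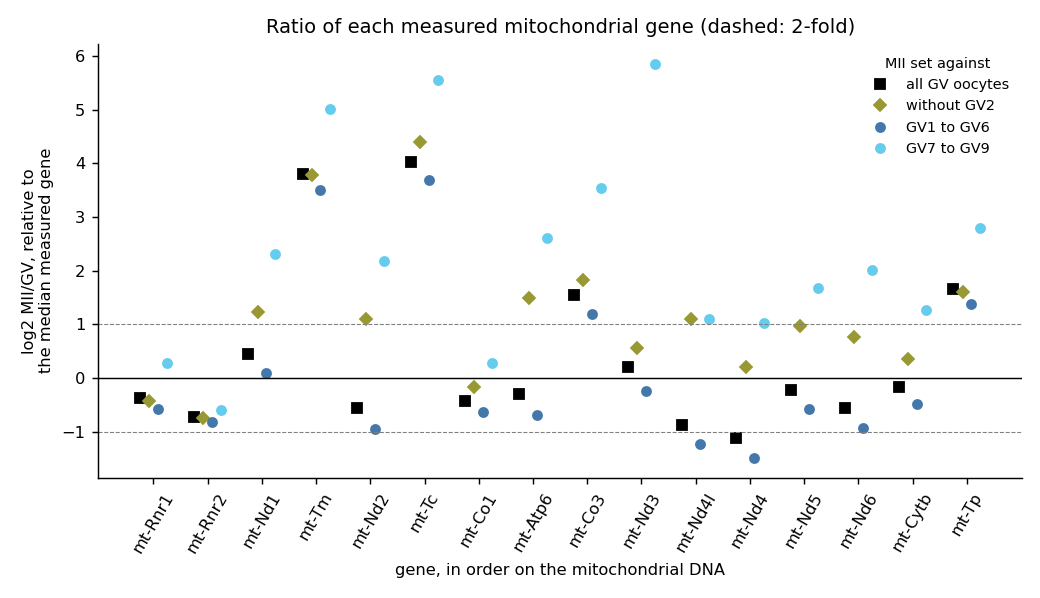
The log2 ratio MII/GV relative to the median measured gene is drawn for the 16 measured members in their order on mitochondrial DNA, with MII set against all GV oocytes, against GV without GV2, and against each GV file set; dashed lines mark 2-fold. The mRNAs other than mt-Co3 lie near or below 0 against GV1 to GV6 and mostly above 1 against GV7 to GV9, while mt-Tm and mt-Tc lie above 3 against every set.

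Nuclear genes that make, cut, modify and degrade mitochondrial RNA were followed as a list of 40, of which 24 were measured. Of these, 1 lay at least 2-fold below the median gene, 0 lay at least 2-fold above it, and the median was −0.14, beside the 15.5% and 12.1% of all measured genes. Polrmt, the mitochondrial RNA polymerase, was the most abundant, with 140 CPM in GV and 60.7 CPM in MII and a relative ratio of −0.22 ± 1.37. The transcription factor Tfam stood at −0.32 ± 1.40 and Tfb2m, its partner at the promoter, at −1.06 ± 0.93, the lowest of the measured genes. Tbrg4, a member of the FASTK family of mitochondrial RNA-binding proteins, was the highest of the measured genes at 0.91 ± 1.52. Lrpprc, which keeps mitochondrial mRNAs stable, stood at −0.53 ± 1.63, and Mtpap, the mitochondrial poly(A) polymerase, at −0.94 ± 1.14. Slirp, the partner of Lrpprc, had 22 counts in GV and 0 in MII and was below the minimum. Of the measured genes named here, Tfb2m lay beyond its spread between oocytes, and its oocytes overlapped between the stages.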

How the data were processed

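For each oocyte the authors deposited a file of counts, whole numbers by Ensembl gene ID. Reads were handled with cutadapt 4.0 and STAR 2.7.10a, and GRCm39 was the build, per the submitters' processing notes. The sources used here do not give the counting tool, its use of strand or its treatment of reads matching several genes. Genes that a file does not list were set to 0.

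Symbols, lengths and sequences came from GENCODE M21 (GRCm38), so no coordinates are given. Of the gene IDs, 98.7% had a symbol. Nuclear copies were found with BLAST 2.17.0. Counts were summed per stage and scaled to CPM, while shares and ratios per length (0.5 added to each count) are means over oocytes. The spread of a ratio is the root of the summed squared SDs of both stages, from log2(CPM + 1) minus the oocyte's median gene. As a check for a library deposited more than once, the counts of all 51 pairs of oocytes of 1 stage were compared. The lowest chi-square per degree of freedom was 7.26, against counting noise alone, which takes amplified reads as independent. All 37 members are accounted for, and values are given for the rRNAs, mRNAs and tRNAs with at least 20 counts in an oocyte. Nuclear genes were named from a fixed list (set genes plus the extremes), and the 8 copies with most counts were named. The members and lists were chosen with earlier results of these data known. The calculation was tested on simulated data. Alternatives were other scalings (edgeR 4.0.16, DESeq2 1.42.0), minimums and means, each file set, leaving out oocytes and adding the copies. The tools were Python 3.11.15, pandas 2.3.3 and R 4.3.3.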

Additional observations from a re-analysis of the deposited data

Results flagged for a closer look

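Single oocytes that stood far from the others of their stage, by the gap to the next oocyte relative to the whole range, were looked for in 48 sets of values, and 10 were found. Chance gives about 1 in 20, or 5% of sets, where values are normally distributed and sets are independent. These sets draw on the same oocytes and totals, so the 10 cannot be set against that rate. GV2 accounted for 7 of them. It was highest of GV in the mitochondrial share of all counts, at 4.69% with or without the unnamed feature, against 1.88% in the next oocyte. As parts of its mitochondrial counts, mt-Nd4 held 19.5%, mt-Nd5 14.1%, mt-Nd4l 4.66%, mt-Atp6 0.254% and mt-Atp8 0.0215%, each the highest of GV. GV2 also had the lowest summed oocyte markers of GV, 8054 CPM, and their part in these values was not tested.

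GV5 stood apart in tRNA, at 0.861% of its mitochondrial counts against 0.218% in the next GV oocyte. MII5 stood apart in mt-Atp8, at 0.0752% against 0.0238%, which rests on 5 counts. GV1 had the lowest log2 ratio of mt-Atp8 over mt-Atp6 per length, −4.67 against −1.82, with 0 counts of mt-Atp8.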

How the results depend on the processing

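No paired analysis was possible because each oocyte is a separate cell, the shared replicate numbers tie no GV oocyte to an MII oocyte, and no test was made. The log2 ratio of the mitochondrial share was −1.78 to −0.94 with single oocytes left out and the unnamed feature kept. It turned to 0.37 against GV7 to GV9 without that feature, and to 0.42 with copies also added. The count of members at least 2-fold lower (1) became 10 in plain CPM, 2 with no minimum, with mean CPM, against GV1 to GV6 or with copies added, and 0 with median CPM, against GV7 to GV9, without GV1 and GV2 or without MII5 and MII6; leaving out single oocytes gave 0 to 4. The count at least 2-fold higher (4) became 2 in plain CPM or with median CPM, 18 with no minimum and 0 with at least 20 CPM. It became 13 against GV7 to GV9 and 9 without GV1 and GV2, and leaving out single oocytes gave 1 to 8. Apart from the file sets, the share over all measured genes was not taken for these alternatives. In plain CPM the median measured gene itself stood at −0.98, close to 2-fold lower. The 10 is therefore no result about the mitochondrial genes. Without a minimum share, 3 mRNAs were at least 2-fold higher within the mRNAs. The ratio of mt-Atp8 over mt-Atp6 (0.92 higher in MII, log2) became 2.50 with copies. For mt-Co3 the ratio was −0.063 with copies. For mt-Nd4 it was −1.42 to 0.20 with single oocytes left out (0.20 without GV2), 0.28 without GV1 and GV2, and 1.03 against GV7 to GV9. The causes were not tested.

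The rRNA share differed by −14.9 to −7.05 percentage points and the tRNA share by 0.519 to 0.725 over the sets that leave out 1 oocyte. Depth limits the tRNAs, with 15 to 440 counts per oocyte behind their shares, and mt-Atp8, with 0 to 43.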
